A study of Mus musculus with 20 samples.

Results

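The genes of the major histocompatibility complex (MHC) whose symbols start with H2- were followed in iWAT (inguinal white adipose tissue), a subcutaneous depot, of *Ad-Tmem120a*-/- mice and their littermate controls. The members were all protein-coding genes of the NCBIM37 annotation with such a symbol, which gave 36 of the 22380 protein-coding genes and of the 36611 genes with deposited transcripts. All 36 lie on chromosome 17. They comprise 2 classical class I genes, 6 genes of the Q region, 5 of the T region, 12 of the M region, 4 classical class II genes, 5 non-classical class II genes and 2 genes, *H2-Ke2* and *H2-Ke6*, that carry the prefix but encode no MHC protein.

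RNA was sequenced from 20 female mice, 5 in each of 4 groups, at 6 months of age after 15 weeks on a diet with 10.5% fat (LFD, low in fat) or with 58% fat (HFD, high in fat). The strain given in the labels is C57BL/6. *Ad-Tmem120a*-/- mice carried floxed alleles of *Tmem120a* and a Cre recombinase driven by the adiponectin promoter, so the deletion is limited to mature adipocytes and leaves the gene intact in the other cells of the fat pad. The controls, labelled wild type, were homozygous for the same floxed alleles and carried no Cre, so all 4 groups share the floxed alleles. Nothing in the labels gives a batch, a litter or a cage.

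MHC class I molecules are carried by nearly all cells and hold peptides made in the cytosol, which CD8 T cells inspect. A class I heavy chain, such as that of *H2-K1* or *H2-D1*, pairs with beta-2 microglobulin (*B2m*) and is loaded with peptides that the transporter *Tap1*/*Tap2* brings into the endoplasmic reticulum. Class II molecules are made of an alpha and a beta chain (*H2-Aa* with *H2-Ab1*, and *H2-Ea* with *H2-Eb1*), present peptides from outside the cell to CD4 T cells, and are made mostly by B cells, macrophages and dendritic cells under the control of *Ciita*. In adipose tissue, which holds macrophages and, in the inguinal depot, a lymph node, both classes are expressed by several cell types. In bulk tissue, fewer cells of a type and less RNA per cell cannot be told apart.

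The promoters of the genes to which the results below turn are given here. RefSeq promoters (GRCm38.p6, 250 bases before to 50 after the start) were found for 31 of the 35 symbols; *H2-Ab1*, *H2-T24*, *H2-T9* and *H2-Ke2* had none in the table. In the class I windows below, capitals mark enhancer A (the first run of capitals in *H2-K1* and *H2-D1*), which NF-kappaB proteins bind. They also mark CCAATCA, which contains the letters CCAAT. On the other strand it reads TGATTGG, the letters of the class II Y box. This match of letters does not show that it is the Y box of class I promoters. *H2-M2* holds only CCAAT, in capitals.

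H2-K1: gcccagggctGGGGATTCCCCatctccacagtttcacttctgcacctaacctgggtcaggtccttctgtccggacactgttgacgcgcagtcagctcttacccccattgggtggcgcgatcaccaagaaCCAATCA
H2-D1: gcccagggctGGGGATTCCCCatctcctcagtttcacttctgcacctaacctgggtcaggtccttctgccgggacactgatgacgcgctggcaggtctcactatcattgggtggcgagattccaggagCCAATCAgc
H2-Q7: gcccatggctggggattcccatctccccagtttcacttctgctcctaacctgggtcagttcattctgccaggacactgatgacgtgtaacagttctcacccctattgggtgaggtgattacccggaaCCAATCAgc
H2-M2: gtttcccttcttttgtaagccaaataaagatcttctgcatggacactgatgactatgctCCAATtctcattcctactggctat

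These windows lie at chr17:34000333-34000468 on the minus strand for *H2-K1*, chr17:35262913-35263049 on the plus strand for *H2-D1*, chr17:35439012-35439147 on the plus strand for *H2-Q7* and chr17:37483615-37483697 on the minus strand for *H2-M2*. In the class II windows that follow, shorter because the boxes sit close together, capitals mark the X box (AACNGATG), the site of the RFX factors, and the Y box (TGATTGG), the site of NF-Y.

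H2-Aa: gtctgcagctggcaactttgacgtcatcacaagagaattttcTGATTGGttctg
H2-Eb1: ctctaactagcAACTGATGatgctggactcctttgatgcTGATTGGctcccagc
H2-DMb1: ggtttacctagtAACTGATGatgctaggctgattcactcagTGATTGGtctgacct
H2-Ob: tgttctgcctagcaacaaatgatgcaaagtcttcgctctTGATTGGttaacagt

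They lie at chr17:34287862-34287915 on the minus strand (*H2-Aa*) and, on the plus strand, at chr17:34305767-34305820 (*H2-Eb1*), chr17:34153087-34153142 (*H2-DMb1*) and chr17:34238807-34238860 (*H2-Ob*). Searched on both strands, the letters TGATTGG were in 15 of 22 class I windows and 7 of 8 class II windows, against 7.82% of 32851 promoters. The X box in these exact letters was in 4 of 8 class II windows (*H2-Eb1*, *H2-Eb2*, *H2-DMb1* and *H2-DMb2*) and 1 of 22 class I windows (*H2-M10.4*), against 2.32% of promoters. Enhancer A in these letters was in the windows of *H2-K1*, *H2-D1* and *H2-Q6* and in no class II window, and 10 of the 32851 promoters (0.0304%) hold it. A match describes the letters of the window and is not a measured binding site. A window without the exact letters may still hold a variant of a box, which was not searched.

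The depth was 54605101 to 92387737 estimated counts per library. The mean of *Tmem120a* was lower in *Ad-Tmem120a*-/- libraries on both diets. On LFD it ranged from 57.9 to 132 TPM (a share of the library's transcripts, corrected for their length) in controls and from 21.5 to 74.0 TPM in *Ad-Tmem120a*-/- mice, and on HFD from 83.3 to 196 TPM and from 29.5 to 89.7 TPM, so the ranges overlapped at their ends. The libraries differed in lymphocyte markers. The summed TPM of 7 B cell markers ran from 2.59 in control LFD replicate 1 to 172 in *Ad-Tmem120a*-/- HFD replicate 17, and that of 5 lymph node stroma markers from 3.66 to 793. Of the latter, *Ccl21a* stayed at or under 3 counts in every library. Epithelial markers summed to 57.1 to 217.5 TPM, endothelial markers to 82.6 to 242 TPM and adipocyte markers to 13300 to 30010 TPM.

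Of the 36 members, 24 had a mean of at least 0.5 TPM in each comparison and were tested. The 12 others were 9 M region genes, 2 T region genes and 1 of the 2 genes that share the symbol *H2-Q2*. Among these, *H2-M10.1* to *H2-M10.6*, known from vomeronasal neurons, had 0 counts in all 20 libraries, and the highest values were 0.858 TPM for *H2-T9* and 0.485 TPM for *H2-M11*. The 34 MHC genes together took 0.147% to 0.307% of all TPM in a library.

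The classical class I genes were the most abundant members once transcripts that encode no protein were set aside, with *H2-D1* at 393.8 TPM, *H2-K1* at 363 TPM and *H2-Aa* next at 216 TPM on average. With all transcripts *H2-D1* averaged 408 TPM and *H2-K1* 372 TPM over the 20 libraries, ranks 172 and 190 among all genes. The lowest level of *H2-K1* was 217 TPM and the highest 523 TPM, and *H2-D1* ran from 193 to 665 TPM. *H2-D1* and *H2-Q4* share 88.9% of their coding sequence and *H2-K1* and *H2-Q4* 88.2%, so reads could be divided between them by the authors' quantification.

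**Figure D1:**
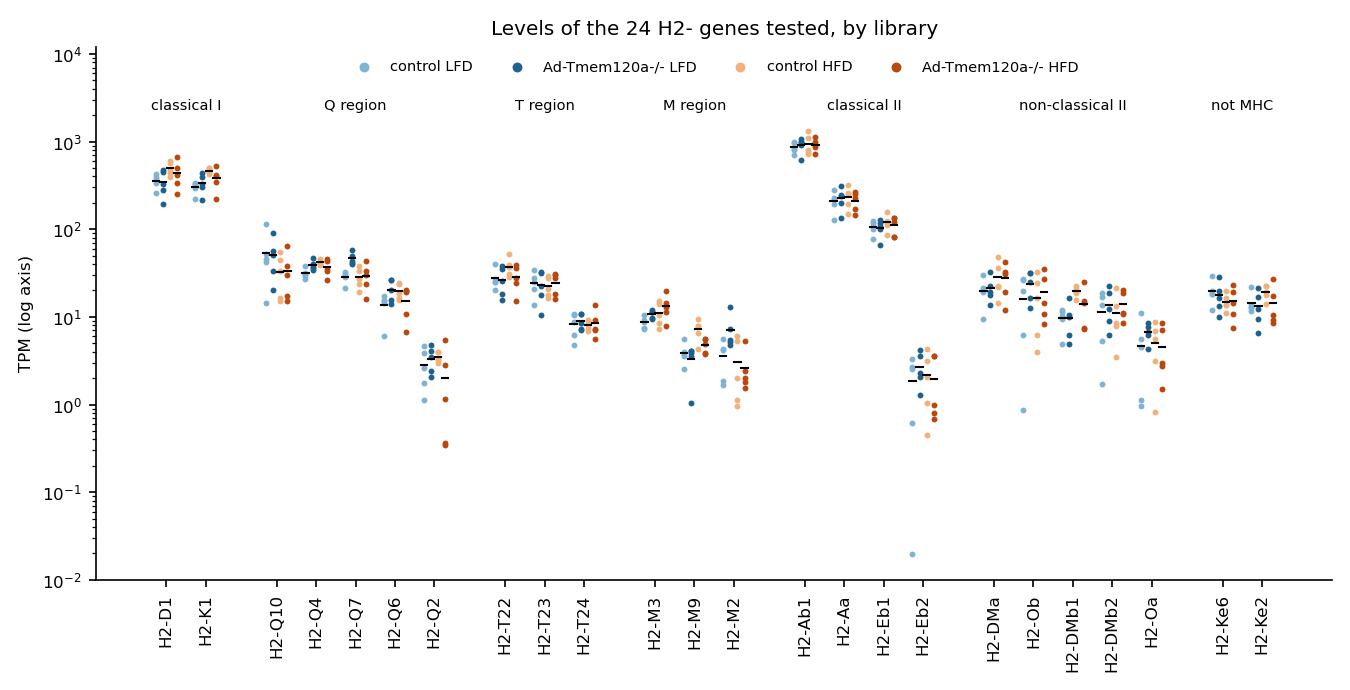
TPM (log axis) of the 24 tested members, with 1 point per library, 4 groups in colour and short black lines at the group means. *H2-Ab1*, *H2-D1*, *H2-K1*, *H2-Aa* and *H2-Eb1* have the highest means (110 to 910 TPM), and *H2-Eb2* spans 0.0197 to 4.30 TPM.

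*H2-Ab1*, the class II beta chain gene, stood above every other member at 910 TPM (rank 66), but 86.2% of this came from 1 short transcript. That transcript, H2-Ab1-002, is annotated as a retained intron, is 515 bases long and lies at chr17:34405215-34406339 (NCBIM37), inside the gene. It held 49.8% of the estimated counts of the gene, and 1 TPM of it stood for 18.7 counts, against 121 counts for the protein-coding transcript H2-Ab1-001 of 1211 bases. From protein-coding transcripts alone *H2-Ab1* came to 123 TPM, below *H2-Aa*, its partner chain, at 216 TPM, so the order of both chains turned. The genes overlap at their ends on opposite strands, and whether the quantification used strand is not given in the sources used here. Of the *H2-Aa* transcripts only H2-Aa-201, at 4.25 TPM on average, reaches *H2-Ab1*. The main one, H2-Aa-001 (211 TPM), lies at chr17:34419689-34424772 (NCBIM37). The part of the overlap in the level of H2-Ab1-002 was not tested.

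The other class II genes were lower. *H2-Eb1*, the beta chain of the second class II molecule, averaged 110 TPM, all from protein-coding transcripts. Its alpha chain is a pseudogene in the annotation, and *H2-Ea-ps* was at 0 TPM in all 20 libraries; C57BL/6 mice are known to lack this chain. *H2-Eb2* averaged 2.16 TPM. Among the non-classical genes, *H2-DMa*, whose product with that of *H2-DMb1* or *H2-DMb2* edits the peptides on class II, averaged 24.3 TPM, of which 76.5% came from a retained-intron transcript. *H2-DMb1* averaged 13.2 TPM and *H2-DMb2* 12.5 TPM, and these neighbours share 95.9% of their coding sequence. *H2-Ob* and *H2-Oa*, the chains of H2-O, which restrains H2-DM in B cells, averaged 18.8 and 5.21 TPM.

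The non-classical class I genes were lower, and their order depended on the transcripts counted. With all transcripts *H2-Q10*, which encodes a secreted class I protein known from the liver, averaged 42.6 TPM and ran from 14.6 to 116 TPM. *H2-Q4* averaged 37.2 TPM and had a narrow range, 26.0 to 46.9 TPM. *H2-Q7*, which encodes a Qa-2 protein anchored by lipid, averaged 33.2 TPM, but 84.4% of it came from transcripts that encode no protein. *H2-T22*, a ligand of some gamma delta T cell receptors, averaged 30.0 TPM, *H2-T23*, the Qa-1 gene that NK cell receptors read, 23.5 TPM, and *H2-M3*, which presents formylated peptides, 10.96 TPM. With protein-coding transcripts alone *H2-Q10* averaged 41.6 TPM, *H2-T22* 28.0 TPM, *H2-Q4* 27.8 TPM and *H2-Q7* 5.17 TPM. *H2-Q6* averaged 17.3 TPM and shares 93.0% of its coding sequence with *H2-Q7*.

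Summed by class, the group means of class II lay above those of class I with all transcripts and below them with protein-coding transcripts. In control mice on LFD all class II genes summed to 1235 ± 193 TPM (SD, n = 5) and all class I genes to 866 ± 160 TPM, while protein-coding transcripts gave 460 ± 107 TPM and 808 ± 153 TPM. The ratio of class I to class II in single libraries ran from 0.547 to 1.12 with all transcripts and from 1.49 to 2.79 with protein-coding transcripts.

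**Figure D2:**
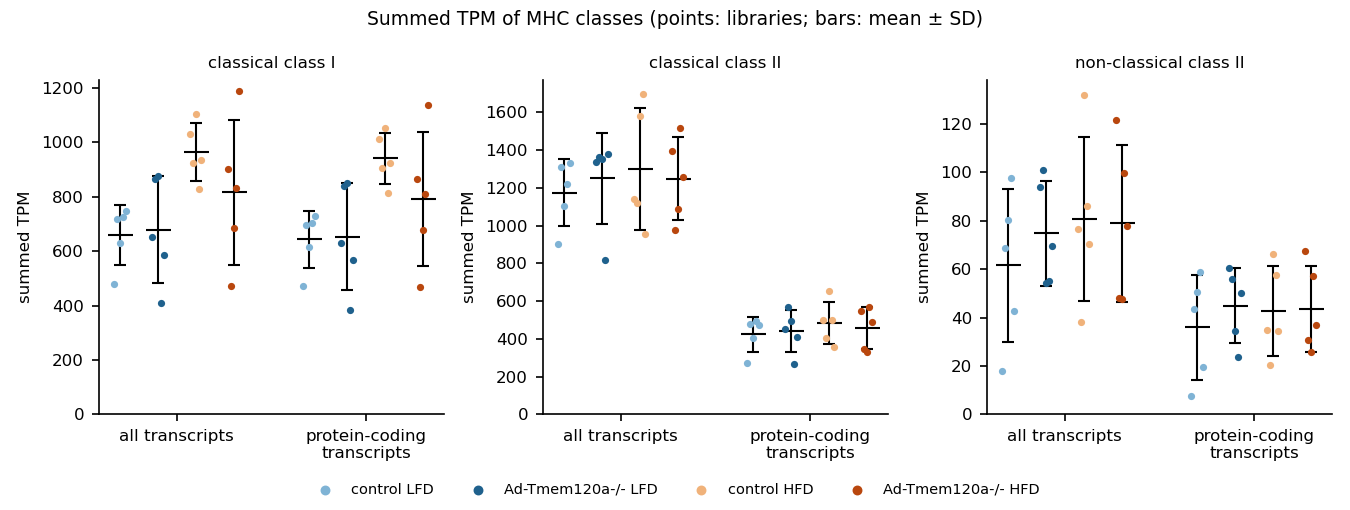
Summed TPM of classical class I, classical class II and non-classical class II genes, with all transcripts and with protein-coding transcripts (points, libraries; bars, mean ± SD of 5). In control mice the classical class I sums on HFD (827 to 1103 TPM) lie above those on LFD (479 to 748 TPM) with all transcripts. The classical class II means lie between 1174 and 1299 TPM with all transcripts and between 424 and 484 TPM with protein-coding transcripts. With TPM scaled between libraries (not drawn), the class I sums of controls were 826.0 to 971.4 TPM on HFD and 525.5 to 817.9 TPM on LFD. The class II means of controls were then 1230 TPM on HFD and 1278 TPM on LFD. On counts neither *H2-K1* nor *H2-D1* was called (adjusted p = 0.321 and 0.577 by edgeR).

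Whether the loss of *Tmem120a* in adipocytes went with a change of MHC genes was first asked on HFD. No member was called at an adjusted p under 0.1 (edgeR's quasi-likelihood test, Benjamini-Hochberg over all genes), where 0.00657% of 15228 genes were called (1 gene). DESeq2 and limma called no member either, but the shares of all genes that these 2 fits called are not given here. The paper, with DESeq2 at the same threshold, reported a longer list of altered genes in this comparison. By edgeR 1 member had an unadjusted p under 0.05 (4.66% of genes tested). No member had groups without overlap in TPM, as 0.69% of genes did, 0.538% higher and 0.151% lower. The member with the smallest p was *H2-M9*, at 7.245 ± 1.97 TPM in controls and 4.745 ± 0.893 TPM in *Ad-Tmem120a*-/- mice (log2 fold change -0.69, SE 0.286, adjusted p = 0.9993). The other members with the smallest p were *H2-T22* (-0.41), *H2-DMb1* (-0.46), *H2-K1* (-0.28) and *H2-Q6* (-0.33), all below 0 on the log2 scale. Of the 24 members 16 were below 0 and 8 above, with a median of -0.12 against 0.01 over all genes tested. For *H2-K1* 4 of the 5 *Ad-Tmem120a*-/- libraries lay below the lowest control library and 1 above the highest, with levels of 400, 223, 346, 418 and 523 TPM against 453, 450, 498, 431 and 502 TPM in controls.

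On LFD no member was called either (edgeR, with 0.00636% of 15717 genes called, 1 gene). DESeq2 and limma again called no member, and their shares over all genes are not given here. An unadjusted p under 0.05 was reached by 3 members (5.11% of genes tested), *H2-Q7*, *H2-Q4* and *H2-M2*, all higher in *Ad-Tmem120a*-/- mice. *H2-Q7* was at 21.4, 32.7, 28.6, 30.5 and 29.2 TPM in controls. In *Ad-Tmem120a*-/- mice it was at 39.7, 41.3, 49.7, 43.6 and 58.3 TPM, so the groups did not overlap (1.4% of genes tested did not, 1.3% higher). The log2 fold change was 0.68 (SE 0.176, adjusted p = 0.929 by edgeR). With protein-coding transcripts alone it was 0.03, at 4.91 ± 2.73 TPM in controls and 5.70 ± 3.63 TPM in *Ad-Tmem120a*-/- mice. The retained-intron transcript H2-Q7-003, of 4209 bases, was at 19.1 ± 3.69 TPM in controls and 34.2 ± 10.4 TPM in *Ad-Tmem120a*-/- mice. Retained-intron transcripts of all genes took a share of the counts with a median of 2.49% (2.12% to 2.92%) in these mice against 2.155% (1.76% to 2.42%) in controls, with overlapping ranges, and the part of this in the result was not tested.

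*H2-M2*, a class I gene of the M region, was at 1.665, 4.30, 4.23, 5.63 and 1.845 TPM in controls on LFD and at 4.74, 7.24, 5.18, 13.1 and 5.49 TPM in *Ad-Tmem120a*-/- mice (log2 fold change 0.98, SE 0.4225, adjusted p = 0.929 by edgeR). The groups overlapped, and the value of 13.1 TPM came from replicate 9. *H2-Q4* was at 31.3 ± 4.07 TPM and 38.9 ± 4.89 TPM (0.22, SE 0.0952). *H2-Q6* (0.44) and *H2-M3* (0.21) followed. The near copies *H2-Q6* and *H2-Q7* were summed with *H2-Q8*, which is annotated as a processed transcript and is no member. The sum was 66.1 ± 22.1 TPM in controls and 114 ± 16.6 TPM in *Ad-Tmem120a*-/- mice. Within it, H2-Q8-202, a pseudogene transcript of 172 bases, was at 19.1 ± 13.8 TPM and 40.6 ± 14.7 TPM. Over the 20 libraries that transcript held 54.6 estimated counts on average, 1.88 counts per TPM. With protein-coding transcripts the sum was 18.6 ± 6.65 TPM in controls and 26.15 ± 9.16 TPM in *Ad-Tmem120a*-/- mice. The sums of T cell markers were 7.57 to 78.3 TPM in controls and 51.5 to 75.3 TPM in *Ad-Tmem120a*-/- mice, and those of lymph node stroma 3.66 to 436 TPM and 340 to 793 TPM, and their part in these values was not tested.

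**Figure D3:**
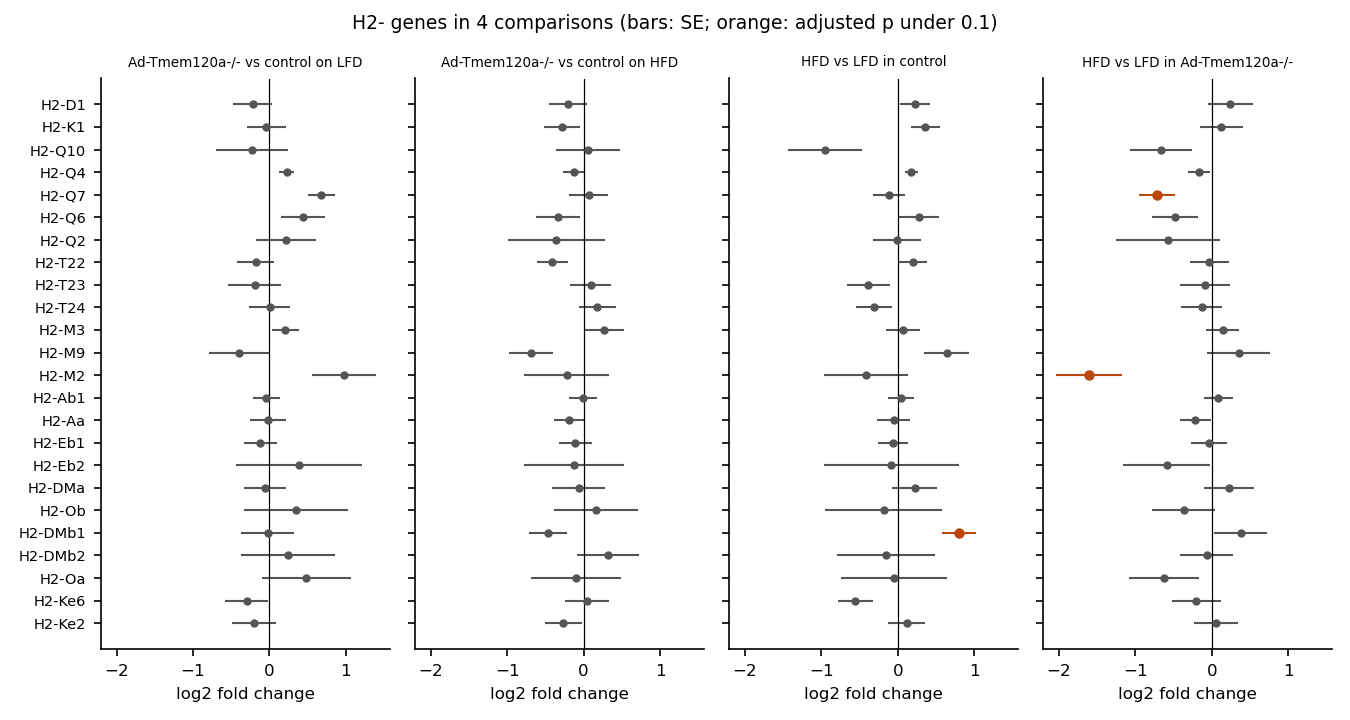
Log2 fold changes of the 24 tested members in 4 comparisons (points; bars, SE), with members at an adjusted p under 0.1 in orange. No member is called between genotypes on either diet, *H2-DMb1* is called higher on HFD in controls, and *H2-M2* and *H2-Q7* are called lower on HFD in *Ad-Tmem120a*-/- mice.

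The diet comparison in controls called 1 of the 24 members, *H2-DMb1*, where 9.32% of 15311 genes tested were called, 4.42% higher and 4.90% lower. *H2-DMb1*, the beta chain of H2-DM (chr17:34290017-34297168, NCBIM37), was at 4.95, 11.5, 9.46, 11.9 and 10.2 TPM on LFD and rose to 22.65, 15.5, 21.2, 19.3 and 18.7 TPM on HFD. Every HFD library lay above every LFD library, as for 3 of the 24 members (*H2-K1*, *H2-DMb1* and *H2-Q4*, all higher), where the groups of 9.78% of genes tested did not overlap, 8.32% higher and 1.46% lower. The log2 fold change was 0.81 (SE 0.222, adjusted p = 0.0602 by edgeR), and protein-coding transcripts gave 0.72 with an adjusted p = 0.144. The fit over all 4 groups gave 0.82 with an adjusted p = 0.144. Leaving out 1 library ended the call for control HFD replicates 11 and 13 (0.75 and 0.79, adjusted p = 0.115 and 0.121) and for control LFD replicates 2, 3 and 5 (0.85, 0.85 and 0.80, adjusted p = 0.104, 0.102 and 0.120). *H2-DMb2*, its near copy, was at 11.3 ± 7.455 TPM on LFD and 10.9 ± 6.86 TPM on HFD, and the pair summed before the fit was not called.

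Markers of several cell types differed between the same groups. Of the 8 macrophage markers *Cd68* was called higher on HFD (0.89, SE 0.228, adjusted p = 0.0485 by edgeR), while 3 were above 0 and 5 below, and their sum ran from 565 to 907 TPM on LFD and 813 to 1002 TPM on HFD. All 6 muscle fibre markers were called lower on HFD, from a sum of 5.87 to 2540 TPM to one of 5.46 to 39.2 TPM. Of the 7 dendritic cell markers 2 were above 0 and 5 below, with a median of -0.12, and only *Itgax*, which macrophages also express, was called (0.92, SE 0.164, adjusted p = 0.00987 by edgeR). All 4 endothelial markers were above 0 and *Cdh5* was called higher, all 5 epithelial markers were below 0 and *Epcam* was called lower, and of 8 adipocyte markers 7 were above 0 and *Lep* was called higher. No B cell, T cell or lymph node stroma marker was called, and of the 5 lymph node stroma markers 3 were tested. The part of these markers in the level of *H2-DMb1* was not tested.

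An unadjusted p under 0.05 was reached by 3 of the 24 members (20.7% of genes tested). In this comparison 11 members were above 0 and 13 below, with a median of -0.03 against -0.04 over all genes. Both classical class I genes were above 0. *H2-K1* was at 302 ± 46.9 TPM on LFD and 467 ± 31.6 TPM on HFD, with no overlap between the groups. On counts its log2 fold change was 0.36 (SE 0.193, adjusted p = 0.321 by edgeR). The TPM scale moved the median of all genes by 0.16 (log2) between these groups, and the log2 ratio of the mean TPM of *H2-K1* was 0.63. On that scale limma on log2(TPM + 1) called 4 of the 24 members higher, *H2-K1*, *H2-DMb1*, *H2-M9* and *H2-Q4*, and none lower, where it called 10.7% of 15311 genes higher and 2.37% lower. *H2-D1* was at 358 ± 66.1 TPM and 497 ± 90.45 TPM (0.22, SE 0.194), with overlap. The next smallest p-values after *H2-DMb1* belonged to *H2-Ke6*, which encodes no MHC protein (-0.55), *H2-M9* (0.64), *H2-Q4* (0.18) and *H2-Q10* (-0.95). For *H2-Q10* the LFD libraries spanned 14.6 to 116 TPM and the HFD libraries 15.3 to 55.2 TPM.

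In *Ad-Tmem120a*-/- mice the diet comparison called 2 members, both lower on HFD, where 9.40% of 15705 genes were called, 4.55% higher and 4.85% lower. The same 2 were the members at an unadjusted p under 0.05 (19.8% of genes), and no member had groups without overlap in TPM (7.95% of genes, 5.01% higher and 2.94% lower). *H2-M2* (chr17:37617796-37620497, NCBIM37) was at 4.74, 7.24, 5.18, 13.1 and 5.49 TPM on LFD and at 2.38, 1.80, 1.535, 5.30 and 2.003 TPM on HFD. It fell by 1.61 on the log2 scale (SE 0.431, adjusted p = 0.0508 by edgeR), and 4 of 5 HFD libraries lay below the lowest LFD library. The fall was 1.19 (adjusted p = 0.106) without the highest library, LFD replicate 9, and the call also ended without HFD replicate 17, 19 or 21 (-1.57, -1.50 and -1.49, adjusted p = 0.102, 0.112 and 0.117). All of its level came from protein-coding transcripts.

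*H2-Q7* (chr17:35576100-35580714, NCBIM37) fell by 0.72 (SE 0.233, adjusted p = 0.0981 by edgeR). It was at 39.7 to 58.3 TPM on LFD, and at 33.2, 15.96, 43.8 and 30.1 TPM in replicates 17, 18, 20 and 21 on HFD, with replicate 19 between the levels of 18 and 21. Again 4 of 5 HFD libraries lay below the lowest LFD library, and replicate 20, at 43.8 TPM, lay within the LFD range. With protein-coding transcripts alone the value was -0.27 (adjusted p = 0.938), with limma on log2(TPM + 1) -0.70 (adjusted p = 0.132), and leaving out any one library other than *Ad-Tmem120a*-/- LFD replicate 7 or HFD replicate 20 ended the call (-0.57 to -0.79, adjusted p = 0.123 to 0.204). All 5 tested Q region genes were below 0, with a median of -0.57. *H2-Q10* (-0.66), *H2-Q6* (-0.49) and *H2-Oa* (-0.63) had the next smallest p-values, and over the 24 members the median was -0.11 against 0.00 over all genes.

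Markers of several cell types also differed between these groups of libraries. Summed T cell markers were at 51.5 to 75.3 TPM on LFD and 14.7 to 60.9 TPM on HFD, with all 8 markers below 0 and *Cd3e* called (-1.27, SE 0.403, adjusted p = 0.0932 by edgeR). Lymph node stroma markers were at 340 to 793 TPM on LFD and at 51.0 to 197 TPM on HFD without overlap. Of these 5 markers 4 were tested, all 4 below 0, and *Glycam1* was called lower (-2.82, SE 0.588, adjusted p = 0.0182 by edgeR). Of 7 dendritic cell markers 6 were below 0, and *Clec9a* (-1.30, SE 0.319, adjusted p = 0.0360 by edgeR) and *Flt3* (-1.36, SE 0.3925, adjusted p = 0.0655) were called lower. Of 7 B cell markers 6 were below 0 and none was called. Of 8 adipocyte markers 7 were above 0, and *Lep* and *Pparg* were called higher. Over all 20 libraries *H2-M2* went with the T cell sum at Pearson's r = 0.835 (Spearman's rho 0.881, without the 2 libraries farthest from the median 0.839, within groups, that is with group means removed, 0.800), with permutation p = 1e-05 (the smallest possible) and 2e-05, adjusted over 9 relations to 4.5e-05 and 0.000135. *H2-Q7* did so at r = 0.800 (rho 0.746, 0.758 without the 2 farthest, within groups 0.752; permutation p = 1e-05 and 0.00019, adjusted 4.5e-05 and 0.000427). With the lymph node stroma sum *H2-M2* had r = 0.759 (rho 0.782, 0.801 without the 2 farthest, within groups 0.623; permutation p = 0.00012 and 0.0001, adjusted 0.00027 and 0.0003) and *H2-Q7* r = 0.771 (rho 0.808, 0.775 without the 2 farthest, within groups 0.622; permutation p = 7e-05 and 3e-05, adjusted 0.00021 and 0.000135). With the macrophage sum *H2-M2* had r = -0.087 and rho 0.140 (permutation p = 0.714 and 0.554, adjusted 0.73 and 0.713). *H2-Q7* had r = 0.159 and rho 0.202 with it (permutation p = 0.504 and 0.393, adjusted 0.73 and 0.59). Within groups the latter was 0.456 (permutation p = 0.0426, adjusted 0.0548). Neither gene was set against the B cell sum. The relations of *H2-M2* and *H2-Q7* were chosen after the values were seen, and their part in the diet result was not tested.

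**Figure D4:**
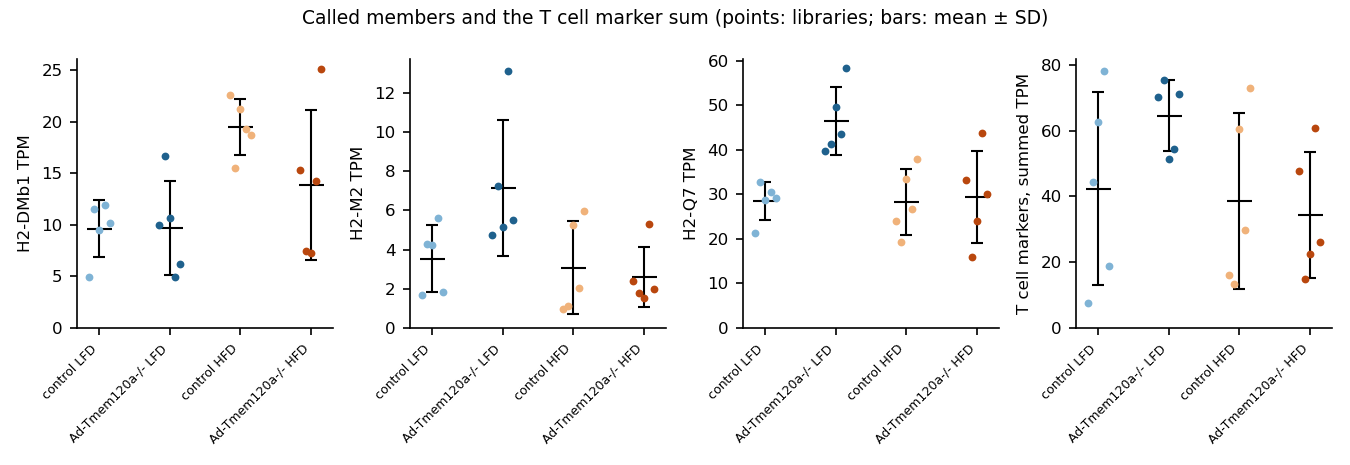
TPM of *H2-DMb1*, *H2-M2* and *H2-Q7* and the summed TPM of 8 T cell markers in the 4 groups (points, libraries; bars, mean ± SD). *H2-DMb1* parts the diets in controls. On LFD *H2-Q7* lies higher in *Ad-Tmem120a*-/- libraries (39.7 to 58.3 TPM) than in controls (21.4 to 32.7 TPM). *H2-M2* and the T cell sum overlap between these groups, and the highest T cell sum, 78.3 TPM, is in control LFD replicate 4.

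Whether the genotype difference itself changed with diet was tested as an interaction. By edgeR it called 0 of 24 members and 0 of 15574 genes (percent called 0), at an unadjusted p under 0.05 for 1 member and 560 genes (3.6%). DESeq2 and limma called no member, and their shares over all genes are not given here. *H2-Q4* had the smallest p (-0.37, SE 0.159, adjusted p = 0.9999). Its group means were 31.3 and 38.9 TPM in control and *Ad-Tmem120a*-/- mice on LFD and 41.8 and 36.7 TPM on HFD. *H2-Q7* (-0.63), *H2-Q6* (-0.79), *H2-M2* (-1.21) and *H2-DMb1* (-0.45) came next.

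Across the libraries some members went closely with the markers of a cell type. *H2-Ob* and the B cell sum (*Ms4a1*, *Cd79a* and 5 others) had r = 0.974 and rho 0.946 over the 20 libraries, on log2(TPM + 1). The permutation p was 1e-05, the smallest that 100000 resamples can give, adjusted over 20 relations to 6.67e-05 for r and 0.0002 for rho. Without the 2 libraries farthest from the median r was 0.96, and with group means removed 0.978. *H2-Ob* was at 0.861 TPM in the library with the lowest B cell sum (2.59 TPM), control LFD replicate 1, and at 35.2 TPM in the one with the highest (172 TPM). *H2-Eb2*, *H2-Oa* and *H2-DMb2* were also low in control LFD replicate 1, at 0.0197, 0.953 and 1.70 TPM.

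*H2-DMb2* went with the B cell sum at r = 0.893 (rho 0.854, without the 2 farthest 0.759, within groups 0.895; permutation p = 1e-05 and 4e-05, adjusted 6.67e-05 and 0.0004). *H2-Ob* and *H2-DMb2* also went with the T cell sum (r = 0.862 and 0.748, rho 0.731 and 0.617; permutation p = 1e-05 and 0.00018, for rho 0.00042 and 0.00465, adjusted 6.67e-05 and 0.00088, for rho 0.0028 and 0.0186; without the 2 farthest 0.758 and 0.533). *H2-DMb1*, the near copy of *H2-DMb2*, went with the macrophage sum at r = 0.732 (rho 0.627, without the 2 farthest 0.538, within groups 0.724; permutation p = 0.00024 and 0.00389, adjusted 0.000432 and 0.007) and with the T cell sum at r = 0.13 (rho 0.053, permutation p = 0.581 and 0.827, adjusted 0.73 and 0.827; -0.060 without the 2 farthest). Within groups the latter was 0.446 (permutation p = 0.0495, adjusted 0.0557). With the lymph node stroma sum *H2-DMb1* had r = 0.084 and rho -0.104 (permutation p = 0.73 and 0.663, adjusted 0.73 and 0.746; -0.24 without the 2 farthest) and within groups 0.509 (permutation p = 0.0212, adjusted 0.0319). These were relations added after the values were seen. With the macrophage sum *H2-DMb2* had r = 0.503 and rho 0.444 (permutation p = 0.0235 and 0.0505, adjusted 0.0588 and 0.0842). That r was 0.132 without the 2 farthest libraries and 0.563 within groups (permutation p = 0.00961, adjusted 0.0214). With dendritic cell markers *H2-DMb2* had r = 0.408 and rho 0.522 (permutation p = 0.0753 and 0.0196, adjusted 0.116 and 0.0436). *H2-DMb1* was not set against the B cell or dendritic cell sums. No relation of *H2-DMb1* was compared with one of *H2-DMb2* by a test.

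The macrophage sum was also set against *H2-K1* and *H2-Aa*. *H2-K1* had r = 0.769 with the macrophage sum (*Csf1r*, *Cd68* and 6 others), with rho 0.553, 0.583 without the 2 farthest and 0.776 within groups (permutation p = 0.00022 and 0.0122, adjusted 0.00088 and 0.0349). *H2-Aa* had r = 0.696 and rho 0.662 (0.441 without the 2 farthest, 0.723 within groups; permutation p = 0.00073 and 0.00196, adjusted 0.00243 and 0.0098). With dendritic cell markers *H2-Aa* had r = 0.625 and rho 0.588 (0.435 without the 2 farthest; permutation p = 0.0027 and 0.007, adjusted 0.00771 and 0.0233). With the B cell sum *H2-Aa* had r = 0.467 and rho 0.508 (0.192 without the 2 farthest, 0.488 within groups; permutation p = 0.0361 and 0.0244, adjusted 0.0802 and 0.0489). With the adipocyte sum, *H2-Aa*, *H2-Ob* and *H2-DMb2* had r = 0.017, -0.325 and -0.192, with rho -0.002, -0.335 and -0.284 (permutation p = 0.944, 0.162 and 0.417, for rho 0.998, 0.149 and 0.224). *H2-K1* had r = 0.444 and rho 0.525 with it (permutation p = 0.0504 and 0.0186, adjusted 0.0916 and 0.0436), and r = 0.087 within groups. Both sides of each relation come from the same libraries and share their depth and dissection.

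**Figure D5:**
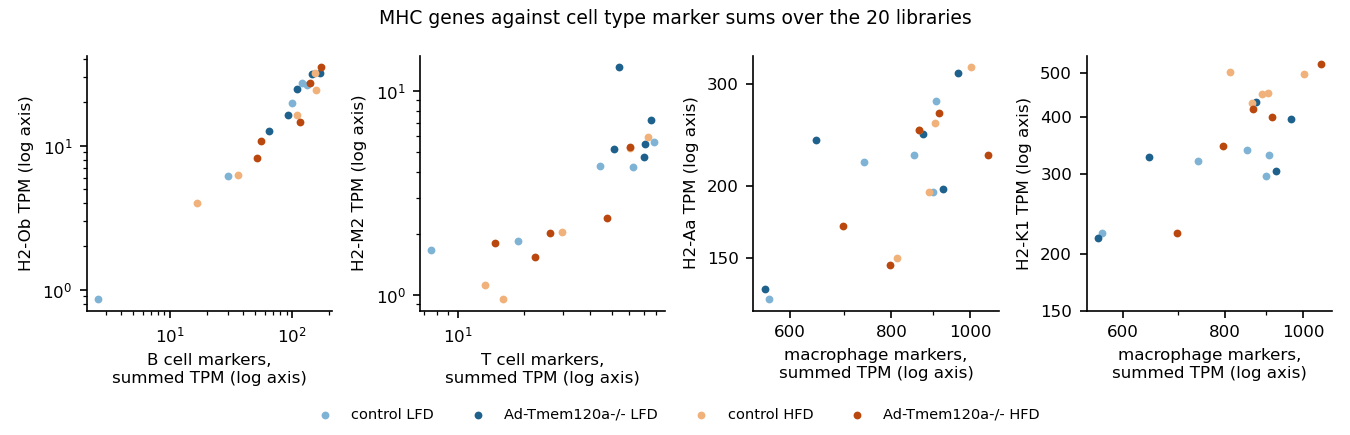
TPM of 4 MHC genes against summed TPM of marker genes in the 20 libraries (both axes log, groups in colour). *H2-Ob* rises along the B cell sum from 0.861 to 35.2 TPM, *H2-M2* along the T cell sum, and *H2-Aa* and *H2-K1* spread more widely along the macrophage sum.

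In the class I list of 15 genes (beta-2 microglobulin, transporters, immunoproteasome and chaperones) none was called between genotypes or by diet in controls, and 1 was called lower on HFD in *Ad-Tmem120a*-/- mice, where by diet 9.32% of genes tested were called in controls and 9.40% in *Ad-Tmem120a*-/- mice. This was *Nlrc5*, the transactivator of class I genes (-0.57, SE 0.182, adjusted p = 0.0931 by edgeR), at 22.2 ± 3.53 TPM on LFD and 17.7 ± 4.13 TPM on HFD. These 2 groups overlapped, as *Nlrc5* on HFD ran from 14.35 to 24.9 TPM in *Ad-Tmem120a*-/- mice. Controls were at 13.6 ± 1.56 and 15.0 ± 3.68 TPM. On LFD its range was 18.7 to 26.4 TPM in *Ad-Tmem120a*-/- mice and 12.4 to 16.05 TPM in controls, without overlap. Between these groups 1.4% of genes tested did not overlap, 1.3% higher. *B2m* was at 14190 ± 2884 TPM in controls on LFD and 21730 ± 3934 TPM on HFD, a log2 fold change of 0.58 on counts that was not called (adjusted p = 0.269). *Tap1* was between 8.13 and 11.7 TPM and *Psmb8*, an immunoproteasome subunit, between 24.8 and 25.7 TPM in the group means.

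In the class II list of 12 genes *Ctsl* and *Lgmn*, proteases of the lysosome, were called higher on HFD in both genotypes and none was called lower. By diet 9.32% of genes tested were called in controls and 9.40% in *Ad-Tmem120a*-/- mice. Of the 12 genes 8 were above 0 and 4 below in controls, and 6 were above and 6 below in *Ad-Tmem120a*-/- mice. *Ctsl* rose by 0.92 in controls and 1.05 in *Ad-Tmem120a*-/- mice (SE 0.160 and 0.176, adjusted p = 0.00884 and 0.0062 by edgeR), and *Lgmn* by 0.53 and 0.51 (SE 0.132 in both, adjusted p = 0.044 and 0.045). Neither gene was called between genotypes. *Cd74*, the invariant chain, was at 333 to 411 TPM and *Ciita* at 3.41 to 4.12 TPM in the group means, with no call in any comparison. Of 4 tested MHC-like genes outside the H2- set, *Hfe*, which regulates iron uptake, rose on HFD in both genotypes (1.20 and 0.96, SE 0.199 and 0.166, adjusted p = 0.00718 and 0.00697). None of the interferon response genes (15 listed, 14 or 15 tested) was called in any comparison.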

How the data were processed

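The authors deposited TPM and estimated counts per transcript, from Salmon 0.13.1 on Ensembl NCBIM37 transcripts, with no normalization between libraries; the methods also name STAR 2.5.3. The 96533 transcripts were summed per gene with GENCODE vM1 (94334 matched; 0.377% to 0.581% of counts unmatched), and a gene was fitted where its mean in a comparison reached 0.5 TPM. Rounded counts were tested with edgeR 4.0.16 (quasi-likelihood, TMM) on the 10 libraries of each pair of groups, and on all 20 for the interaction, at an adjusted p under 0.1 over all genes, the threshold of the methods, which used DESeq2. DESeq2 1.42.0, limma 3.58.1, RLE size factors, length offsets, no filter, protein-coding transcripts, summed paralogs, all groups together and leaving out each library were alternatives. The fits were tested on simulated data. Correlations used log2(TPM + 1) and 100000 permutations. Promoters came from RefSeq (GRCm38.p6), and coding identity from the NCBIM37 transcripts (edlib). Fits ran in R 4.3.3 and Python 3.11.15.

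The members and lists were chosen with earlier results of these data known. Every member over the limit could be named, with the called ones, the 5 smallest p-values of each comparison and the 2 highest under the limit always named; of the lists, called genes, *B2m*, *Tap1*, *Cd74*, *Ciita*, *Nlrc5* and *Psmb8* were named. Marker lists covered B cells, T cells, macrophages, dendritic cells, lymph node stroma, adipocytes, muscle fibres, epithelium and endothelium; 1 marker first listed is not reported here and entered no sum. Each mouse is 1 library, so p-values measure the spread between mice. Estimated counts carry counting error and assignment error between near copies, and only the first shrinks with depth.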

Additional observations from a re-analysis of the deposited data

Results flagged for a closer look

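Among 128 groups of 5 libraries, made of the tested members and the class sums in each of the 4 groups, 6 held 1 library far from the other 4 by Dixon's test at the 95% level. Chance alone gives about 1 in 20 groups, and 6 of 128 is close to that share. The class II sums among them are nested and flag the same library. *H2-Ke2* was at 22.1 TPM in control LFD replicate 4, where the others were at 11.7 to 13.5 TPM. *H2-Q6* was at 6.02 TPM in control LFD replicate 1 (others 14.6 to 17.3 TPM), the library with the lowest B and T cell marker sums. *H2-M9* was at 1.05 TPM in *Ad-Tmem120a*-/- LFD replicate 6 (others 3.61 to 4.12 TPM). *H2-M2* was at 5.30 TPM in *Ad-Tmem120a*-/- HFD replicate 20 (others 1.535 to 2.38 TPM), whose T cell sum of 60.9 TPM was the highest of its group. The classical class II sum was 818.8 TPM and the sum of all class II genes 874.1 TPM in *Ad-Tmem120a*-/- LFD replicate 9 (others 1338 to 1381 and 1406 to 1465 TPM), the library with the lowest macrophage sum, 558 TPM. The part of these marker sums was not tested.

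The differences in mean level of *H2-Q6* between diets had opposite signs in the genotypes, and neither diet comparison called the gene (log2 0.28 in controls and -0.49 in *Ad-Tmem120a*-/- mice, adjusted p = 0.606 and 0.420 by edgeR). Every *Ad-Tmem120a*-/- library on HFD lay below the LFD mean of that genotype, with a difference in means of -5.125 TPM, though 3 of them (19.43 to 20.03 TPM) lay within the LFD range of 14.1 to 26.3 TPM. Every control library on HFD lay above the LFD mean of controls, with 5.952 TPM. That mean includes control LFD replicate 1, at 6.02 TPM. The other 4 LFD libraries of controls lay above it too (14.6 to 17.3 TPM), and the HFD libraries of controls at 15.4 and 16.3 TPM lay within their range. The interaction did not pass the threshold (log2 -0.79, SE 0.434, adjusted p = 0.9999 by edgeR).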

How the results depend on the processing

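Of 509 fold changes of named members under alternatives, 480 kept their direction and side of the threshold, 23 lost a call, 5 gained one and 1 reversed, the interaction of *H2-Q7* with protein-coding transcripts (0.0025 against -0.63). No member was called between genotypes or by the interaction under any alternative run. By diet in controls, limma called 4 members with either pseudocount (1 or 0.1), length offsets called 2, and protein-coding transcripts, summed paralogs and the fit over all 4 groups called 0, while leaving out 1 library gave 0 to 2. By diet in *Ad-Tmem120a*-/- mice, 1 was called, *H2-M2*, with no filter, limma (either pseudocount), protein-coding transcripts or summed paralogs, and leaving out 1 library gave 0 to 2. Protein-coding transcripts moved 13 class sums, in TPM: the Q region to 107.3 (*Ad-Tmem120a*-/- LFD) and 93.39 (control HFD); classical class II to 423.9 and 440.1 on LFD and 483.7 and 456.9 on HFD (control and *Ad-Tmem120a*-/-); all class II to 459.9 and 485.0 on LFD and 526.4 and 500.4 on HFD; and non-classical class II to 44.94 (*Ad-Tmem120a*-/- LFD), 42.72 (control HFD) and 43.58 (*Ad-Tmem120a*-/- HFD). By construction this alternative drops the counts given to retained-intron transcripts. On TMM-scaled counts, *H2-K1* with dendritic cell markers passed (r = 0.536, permutation p adjusted 0.0357, against 0.445), and *H2-Aa* with adipocyte markers reversed (-0.148 against 0.017). For the other changes the cause was not tested.

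No paired analysis was possible because the labels give no litter and nothing else that links a mouse of one group to a mouse of another. Near copies limit the assignment of reads whatever the depth, and members under the limit were too low to compare.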
